A study of Homo sapiens with 4 samples.

Results

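The genes described here are 10 feedback inhibitors and transcriptional outputs of the RAS-MAPK pathway, namely the MAPK phosphatases DUSP4, DUSP5 and DUSP6, the Sprouty and SPRED proteins SPRY2, SPRY4, SPRED1 and SPRED2, and the transcription factors ETV4, ETV5 and EGR1. They were taken by symbol from the table of read counts, and all 10 were found among its 24014 genes. RNA-seq had been performed on SK-N-SH, a human neuroblastoma cell line, to ask which transcripts change when the long non-coding RNA AP1AR-DT is raised. The control cells (2 libraries) had received an empty lentiviral vector, although their titles call them WT. The AP1AR-DT_OE cells (2 libraries) had received a lentivirus carrying AP1AR-DT, so that, taken this way, both groups were transduced. The titles number the libraries of each group 1 and 2, and the labels do not say what is shared by libraries of the same number. In the second AP1AR-DT_OE library, the genotype and treatment labels give the RNA another version suffix than the title, which was followed. The libraries are not stated to come from separate cultures, so the p-values below measure only the spread between these samples, which may be technical.

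In this pathway, growth factor receptors load RAS with GTP, and RAS then switches on the RAF, MEK and ERK kinases in turn. Active ERK raises transcription of immediate early genes such as EGR1 and FOS within minutes and of ETS-family factors such as ETV4 and ETV5 more slowly, and among the induced genes are inhibitors that damp the same pathway: DUSP phosphatases remove phosphate from ERK, while Sprouty and SPRED proteins act higher up, around RAS and RAF. Activating lesions of ALK and of RAS genes, which feed this pathway, occur in neuroblastoma.

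The libraries held between 21988065 and 26184599 counts, and every one of the 10 genes had at least 298 counts in each library. AP1AR-DT (ENSG00000260526, listed as RP11-73K9.2, chr4:112229561-112231596, GRCh38) gave 3 and 18 counts in control cells against 680 and 1065 in AP1AR-DT_OE cells. Its Log2FC was 6.63 (95% interval 5.38 to 7.89, DESeq2 adjusted p = 3.64e-21), so the overexpressed RNA followed the labels, although the edgeR quasi-likelihood test gave an adjusted p of 0.39 for a Log2FC of 6.60. Of the adrenergic neuroblastoma markers, 11 of 12 were in the table and all 11 lay above 12 counts in some library, with summed levels of 1196 to 1274 CPM (counts scaled to the total of the library) across libraries. Mesenchymal markers, the other state of this cell line, summed to 9510.4 to 10295 CPM, with 11 of 12 above 12 counts and MEOX1 under it. Of the 11 mesenchymal markers that averaged 50 or more normalized read counts, 6 had a Log2FC above 0 and 5 below, with a median of 0.04. Within that list, only PRRX1 had an unadjusted p under 0.05 by DESeq2. It had 2770 and 11358 normalized read counts in control cells against 1241 and 2246 in AP1AR-DT_OE cells. Its DESeq2 Log2FC was -2.02 (unadjusted p = 0.000987, adjusted p = 0.43). PRRX1 was called with GC correction (Log2FC -1.76, DESeq2 adjusted p = 0.0011) and without control 1 (-2.71, adjusted p = 4.24e-06), while without control 2 its Log2FC was -0.66 (adjusted p = 1.00). Both blood markers in the table were under 12 counts, and epithelial markers summed to 109 to 139 CPM. Whether the make-up of the cultures had a part in the values below was not tested, and in bulk RNA fewer cells of a type and less RNA per cell cannot be told apart.

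None of the 10 genes was called different between AP1AR-DT_OE and control cells. By the DESeq2 Wald test, 0 of 10 had an adjusted p under 0.05, against 33 of 24014 genes in the whole table (0.137%, of which 0.0833% were higher and 0.0541% lower in AP1AR-DT_OE). The adjusted p was 1.00 for each of the 10, and 0 of 10 had an unadjusted p under 0.05, against 0.816% of the table. The edgeR quasi-likelihood test also gave 0 of 10 at either threshold. It called 0 of the 17027 genes it fitted, and 112 of them had an unadjusted p under 0.05. With 0 called in the whole table, its adjusted threshold says nothing particular about the 10. The 95% interval of the Log2FC held 0 for 10 of 10 genes, 8 Log2FC values were below 0 and 2 above, and their median was -0.08, beside -0.02 over the 13298 genes that averaged 50 or more normalized read counts (called the abundant genes below). The largest difference in these genes lay instead between the libraries numbered 2 and those numbered 1, and it belonged to EGR1.

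**Figure D1:**
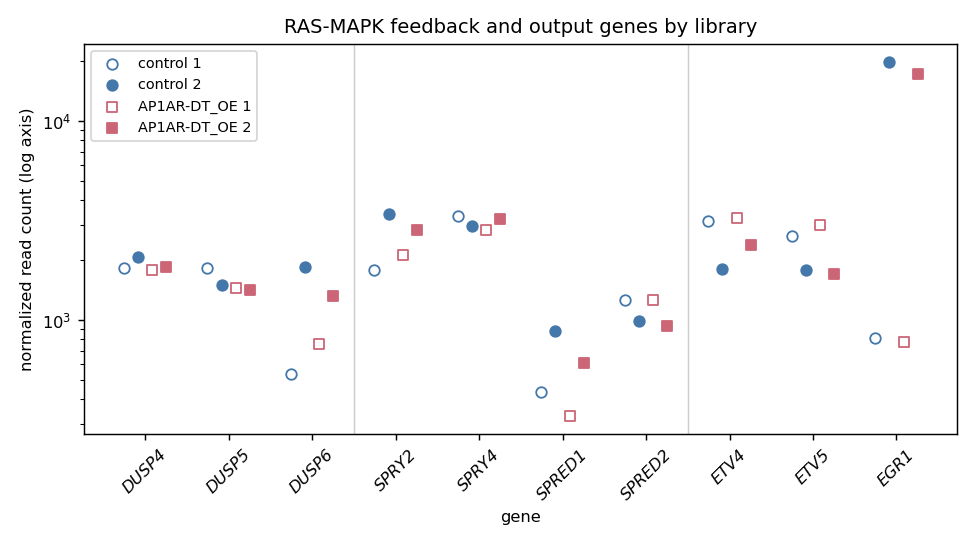
Normalized read counts (log axis) of the 10 genes in each of the 4 libraries, with circles for controls, squares for AP1AR-DT_OE, open symbols for libraries numbered 1 and filled symbols for those numbered 2. The EGR1 values fall into a low pair, 812 and 778, and a high pair, 19904 and 17357, with each group holding a library of either kind, while DUSP4 and SPRY4 lie within a narrow band.

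None of the MAPK phosphatases passed the test, and their Log2FC values lay between -0.21 and -0.10. DUSP4 (ENSG00000120875, chr8:29333064-29350684), a nuclear phosphatase that is induced by ERK and acts on it, had 1819 and 2073 normalized read counts in control cells against 1782 and 1850.1 in AP1AR-DT_OE cells. The groups overlapped, with means of 1946 ± 179 and 1816 ± 47.8 (SD, n = 2 each) and a Log2FC of -0.10 (SE 0.43, 95% interval -0.95 to 0.75). DUSP5 (ENSG00000138166, chr10:110497907-110511533), which is nuclear and specific for ERK, had 1817 and 1491 in control cells against 1448 and 1407 in AP1AR-DT_OE cells. It was the only one of the 10 whose groups did not overlap, both AP1AR-DT_OE libraries lying below both controls. That is 1 of 10, where 9.45% of the abundant genes had groups that did not overlap (4.35% with AP1AR-DT_OE below both controls and 5.11% above). The DUSP5 Log2FC was -0.21 (SE 0.44, 95% interval -1.07 to 0.65), with means of 1654 ± 230.2 and 1428 ± 28.6 (SD, n = 2 each). DUSP6 (ENSG00000139318, chr12:89347235-89352501), the cytoplasmic phosphatase of ERK, had 533 and 1854 in control cells against 757 and 1314 in AP1AR-DT_OE cells. Both AP1AR-DT_OE values lay between the controls, the Log2FC was -0.21 (SE 0.60, 95% interval -1.38 to 0.97), and the number 2 library was the higher in each group.

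The Sprouty proteins are ERK-induced adaptors that dampen signalling from receptor tyrosine kinases. SPRY2 (ENSG00000136158, chr13:80335976-80341126) had 1777 and 3414 normalized read counts in control cells against 2131 and 2819.8 in AP1AR-DT_OE cells. The AP1AR-DT_OE values again lay between the controls, and the Log2FC was -0.07 (SE 0.49, 95% interval -1.02 to 0.89). SPRY4 (ENSG00000187678, chr5:142310427-142326455) had 3322 and 2959.8 in control cells against 2828 and 3227 in AP1AR-DT_OE cells. It was among the steadiest of the genes, with overlapping groups, means of 3141 ± 256 and 3027 ± 282 (SD, n = 2 each) and a Log2FC of -0.05 (SE 0.43). The fitted dispersion describes the spread between libraries beyond counting error, and DESeq2 draws it toward the value of genes of like abundance. This dispersion was larger than that of SPRY4 in 98.2% of the abundant genes, a rank that does not rest on the SPRY4 values alone.

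The SPRED proteins bind neurofibromin, the RAS GTPase activator encoded by NF1, and bring it to the membrane. SPRED1 (ENSG00000166068, chr15:38252836-38357249) was the least abundant of the 10, with 436 and 882 normalized read counts in control cells against 327 and 609 in AP1AR-DT_OE cells. Its groups overlapped, but it was lower in AP1AR-DT_OE within each number, by log2 ratios of -0.42 for number 1 and -0.53 for number 2. Its Log2FC of -0.49 (SE 0.55, 95% interval -1.57 to 0.59) carried the smallest p of the 10, at 0.37 unadjusted by DESeq2. SPRED2 (ENSG00000198369, chr2:65310851-65432637) had 1259.7 and 984 in control cells against 1263 and 932 in AP1AR-DT_OE cells. Libraries of the same number gave nearly equal values of SPRED2, the number 1 libraries being the higher in both groups, and the Log2FC was -0.03 (SE 0.46).

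The PEA3-type ETS factors ETV4 and ETV5 were the genes with a Log2FC above 0. ETV4 (ENSG00000175832, chr17:43527844-43579620) had 3142 and 1811 normalized read counts in control cells against 3247 and 2379 in AP1AR-DT_OE cells. The number 1 library was the higher in each group, and the Log2FC was 0.18 (SE 0.48, 95% interval -0.75 to 1.12). ETV4 shares exon sequence with DHX8 on the other strand, which had 1744 to 2571 counts, and since it is not stated whether counting used strand, its reads and those of DHX8 cannot be told apart there. ETV5 (ENSG00000244405, chr3:186046314-186110318) had 2654 and 1773 in control cells against 2992 and 1696 in AP1AR-DT_OE cells. It followed the same pattern as ETV4, with the number 1 library the higher in each group and a Log2FC of 0.08 (SE 0.49, 95% interval -0.87 to 1.03). Their relative ETV1, also an ERK output, had 200.5 and 501 in control cells against 215 and 357 in AP1AR-DT_OE cells (Log2FC -0.29, SE 0.59), so that it was the number 2 library that was the higher there.

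**Figure D2:**
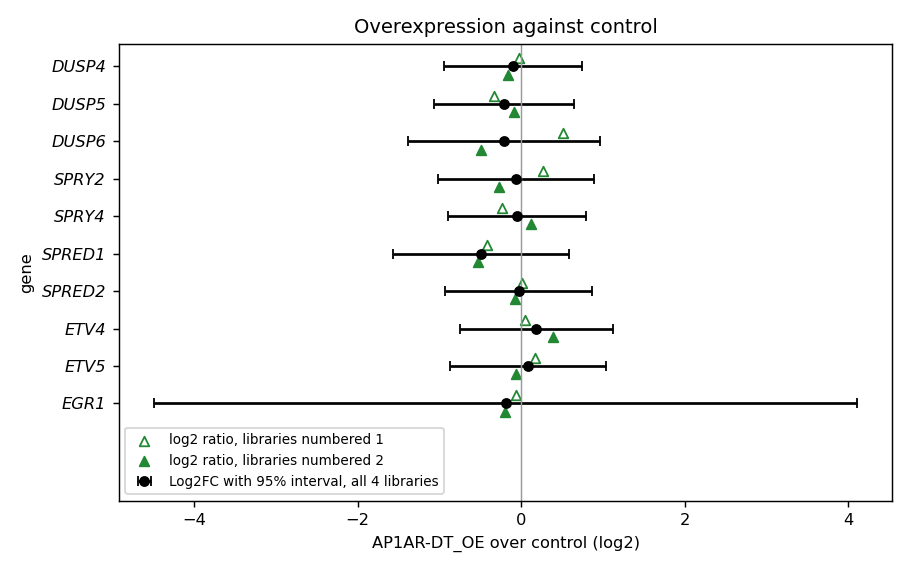
Log2FC of AP1AR-DT_OE over control for each of the 10 genes with its 95% interval (DESeq2), and the log2 ratio within number 1 (open triangles) and within number 2 (filled triangles). Every interval crosses 0, from -4.49 to 4.11 for EGR1 and from -0.89 to 0.79 for SPRY4.

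EGR1 (ENSG00000120738, chr5:138465479-138469303), a zinc finger transcription factor and a classical immediate early gene, is described with its promoter because its values set it apart from the other genes. Transcription of EGR1 is raised through serum response factor, which binds CArG boxes together with ELK factors that ERK phosphorylates. The 250 bases upstream of the start of EGR1 and, for comparison, of DUSP6 and SPRED1, the genes with the next largest differences between numbers, are shown 5′ to 3′ on the strand of the gene with the CArG boxes in capitals. They are the upstream part of RefSeq promoter windows of 300 bases, which also take in 50 bases from the start onward, on GRCh38.p14, at chr5:138465229-138465478 (+ strand) for EGR1, chr12:89352502-89352751 (- strand) for DUSP6 and chr15:38252586-38252835 (+ strand) for SPRED1.
EGR1: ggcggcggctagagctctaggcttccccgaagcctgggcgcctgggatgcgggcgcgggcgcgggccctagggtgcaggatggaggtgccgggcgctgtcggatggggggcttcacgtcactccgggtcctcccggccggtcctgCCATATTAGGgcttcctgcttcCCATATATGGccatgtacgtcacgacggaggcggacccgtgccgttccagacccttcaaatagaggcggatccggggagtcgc
DUSP6: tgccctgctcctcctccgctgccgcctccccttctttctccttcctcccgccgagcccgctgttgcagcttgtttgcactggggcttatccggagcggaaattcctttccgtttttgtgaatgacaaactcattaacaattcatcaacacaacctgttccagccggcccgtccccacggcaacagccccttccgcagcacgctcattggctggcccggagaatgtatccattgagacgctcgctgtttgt
SPRED1: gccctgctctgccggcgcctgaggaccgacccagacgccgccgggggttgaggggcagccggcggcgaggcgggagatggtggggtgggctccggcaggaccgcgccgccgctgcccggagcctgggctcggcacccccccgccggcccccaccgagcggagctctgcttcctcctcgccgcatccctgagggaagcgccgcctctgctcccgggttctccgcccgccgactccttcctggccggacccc

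The whole 300-base EGR1 window held 2 CArG boxes, 105 to 96 and 83 to 74 bases before the start, and it was the only 1 of the 6 genes with a RefSeq promoter window in which a CArG box was found. A CArG box, searched on both strands, was present in 454 of 35116 such 300-base windows in RefSeq (1.29%). The motif TGACG, the core of the site for CREB and ATF proteins, was in 24.6% of windows, and it occurred in the EGR1 window 2 times. It also occurred 1 time in a window of each of SPRY2, SPRY4 and SPRED2, and not in those of DUSP6 and SPRED1. A match in these letters is a description and not a measured site.

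EGR1 had 812 and 19904 normalized read counts in controls 1 and 2, and 778 and 17357 in AP1AR-DT_OE 1 and 2. In both groups the number 2 library was more than 20 times the number 1 library, 24.5-fold in the controls and 22.3-fold in AP1AR-DT_OE, whereas the groups overlapped. Within number 1 the log2 ratio of AP1AR-DT_OE to control was -0.06, and within number 2 it was -0.20. The group means were 10358 ± 13500 and 9067 ± 11723 (SD, n = 2 each), and the Log2FC of -0.19 had an SE of 2.19 and an interval from -4.49 to 4.11 in this fit, which counts the difference between numbers as spread within a group. The fitted dispersion was larger in only 88 of 13298 genes (0.662%).

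Only 4 of 13220 abundant genes with a count above 0 in every library had a difference between numbers at least as large as EGR1 in both groups, and 3 of them were EGR1, FOS and FOSB. FOS, an AP-1 subunit and immediate early gene, had 61.5 and 15212 normalized read counts in control cells against 35.1 and 8173 in AP1AR-DT_OE cells. FOSB, a close relative of FOS, had 61.5 and 7776 in control cells against 30.7 and 4045 in AP1AR-DT_OE cells. The number 2 library was higher for both genes in both groups, by log2 values of 7.95 and 7.86 for FOS and 6.98 and 7.04 for FOSB. The fourth was RP11-23P13.4, a transcript of unstated function with 5.69 and 168 in control cells against 4.39 and 178 in AP1AR-DT_OE cells. In the other ERK output list, 10 of 15 abundant genes were higher in number 2 in both groups and 5 were lower. Among the other feedback inhibitors, 6 of 11 were higher and 4 lower. Of all abundant genes, 41.4% were higher in number 2 in both groups and 44.5% were lower. ATF3, a stress-induced factor, was higher in number 2 by log2 values of 2.83 in the controls and 1.24 in AP1AR-DT_OE, and DUSP1, a phosphatase induced early by growth factors and stress, by 1.84 and 1.85. FOS, FOSB and ATF3 were the 3 of 15 genes of the other ERK output list that were more than 2-fold higher in number 2 in both groups, beside 8.51% of the abundant genes.

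**Figure D3:**
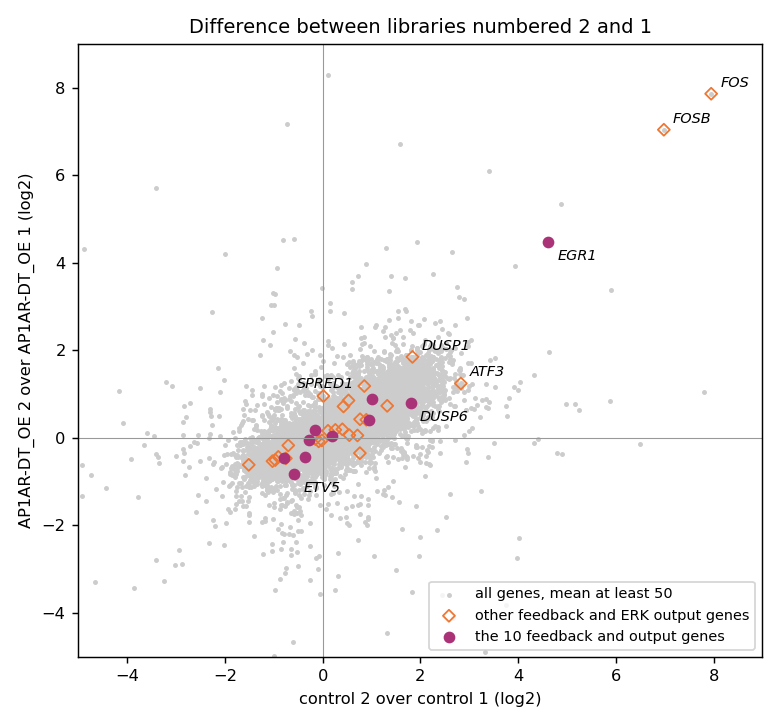
Log2 ratio of library number 2 to number 1 in the controls (x axis) and in AP1AR-DT_OE (y axis) for the 10 genes (filled circles) and the other feedback and ERK output genes (diamonds), over 13220 abundant genes (grey), of which 10 lie outside the axes. EGR1 stands at 4.62 and 4.48, FOS at 7.95 and 7.86, while DUSP6 and SPRED1 stand nearer the origin at 1.80 and 0.80 and at 1.02 and 0.90.

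Among the other genes the difference between numbers was smaller than for EGR1, and it ran in both directions. Without the GC correction given below, 5 of the 10 genes were higher in number 2 in both groups (DUSP4, DUSP6, SPRY2, SPRED1 and EGR1). Another 4 were lower in both (DUSP5, SPRED2, ETV4 and ETV5), and SPRY4 differed in direction between groups. Of the abundant genes, 41.4% were higher in both groups and 44.5% lower in both. Of the 10, only EGR1 was more than 2-fold higher in both groups (1 of 10 against 8.51%). It was also the only gene of the 10 more than 4-fold higher, against 0.353%. For 9 of the 10 genes the mean absolute log2 ratio between numbers was larger than the absolute Log2FC between groups. These measures are unlike, because opposite signs can cancel in the Log2FC but not in a mean of absolute values. For SPRY4, the log2 ratio between groups was -0.23 within number 1 and 0.12 within number 2. Between numbers it was -0.17 in the controls and 0.19 in AP1AR-DT_OE. The share over the abundant genes was not taken. The ratio of AP1AR-DT_OE to control had the same sign within number 1 and within number 2 for 5 of the 10 genes, where 38.2% of the abundant genes did.

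The log2 ratio between numbers also moved with GC content across the table. Over 13284 genes, the Spearman correlation of GC content with the log2 ratio was -0.77 in the controls and -0.65 in AP1AR-DT_OE, and over the 10 genes it was -0.44 and -0.41 (-0.73 and -0.70 over the 9 without EGR1). These are descriptions across genes of the same libraries, which are not independent. After a correction for GC content, the ratio of SPRED1, with a GC content of 36.3%, changed from 1.02 and 0.90 to -0.33 and 0.08, and that of ETV4, with 60.6%, from -0.79 and -0.45 to -0.05 and -0.12. The corrected ratio was 1.51 and 0.67 for DUSP6, -0.62 and -0.80 for ETV5, and 5.17 and 4.77 for EGR1, so that for these genes the difference between numbers remained about as large. DUSP5 turned in direction, from -0.28 and -0.04 to 0.29 and 0.25. SPRY4 changed from -0.17 and 0.19 to 0.02 and 0.33, and DUSP4 from 0.19 and 0.05 to 0.47 and 0.24. SPRY2 (0.90 and 0.42) and SPRED2 (-0.11 and -0.27) kept their direction. The counts of genes higher or lower in number 2 given above hold only without this correction. The part of GC content in these results was not tested further.

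**Figure D4:**
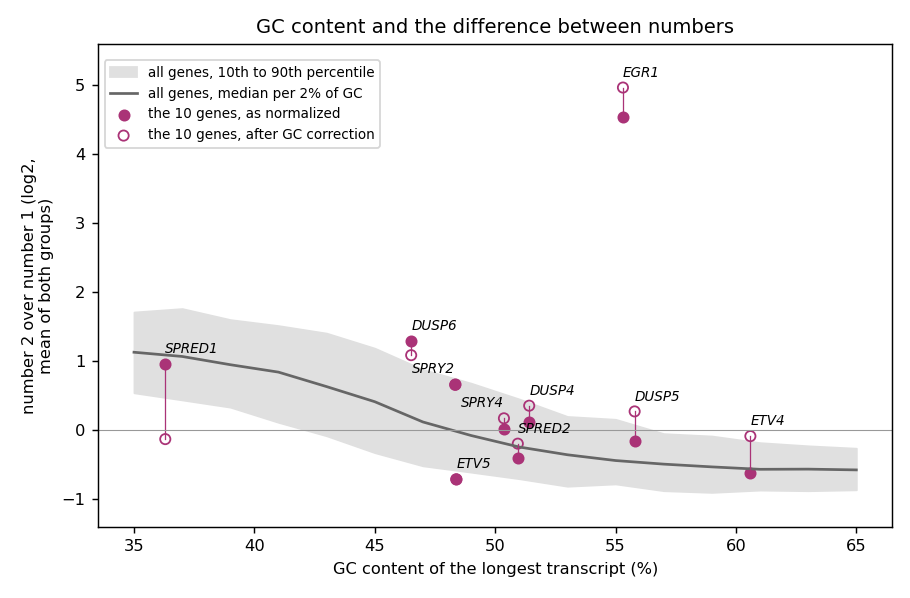
Log2 ratio of library number 2 to number 1 (mean of both groups) against GC content in percent for the 10 genes, before and after the GC correction, with a line joining each pair of values. The dark line is the median of the abundant genes per 2% of GC and the grey band their 10th to 90th percentile. EGR1 stays at the top, and SPRED1 at 36.3% moves toward 0.

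Per kilobase of transcript, the order of the levels was ETV4 and SPRY2 first, at means of 1133 and 1109 normalized read counts per kilobase, whose ranges overlapped. The place of ETV4 is uncertain, because its reads cannot be told from those of DHX8 in the exon sequence they share. SPRY4, DUSP5 and ETV5 followed with 629, 622 and 558, and neighbours in this group overlapped. DUSP4, at 339, DUSP6, at 307, and SPRED2, at 246, formed the next group with overlapping neighbours, and SPRED1 was last at 77.5, apart from SPRED2. EGR1 has no fixed place in this order, with 248 to 6345 per kilobase depending on the library.

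The rest of the pathway was covered by 6 lists of 77 genes in all, of which 76 were in the table and 70 were abundant. By DESeq2, 0 of 76 were called (0.137% over the whole table), and 1 of the 76 had an unadjusted p under 0.05 (0.816%). FOS and FOSB were called under 1 alternative, a GC correction combined with a block for the replicate number (DESeq2 adjusted p = 9.71e-06 and 3.38e-06). The gene with an unadjusted p under 0.05 was SPRY1, the Sprouty relative of SPRY2 and SPRY4, with 219.8 and 373 normalized read counts in control cells against 150.3 and 118 in AP1AR-DT_OE cells. Both AP1AR-DT_OE libraries lay below both controls, and its Log2FC was -1.14 (SE 0.56, unadjusted p = 0.042, adjusted p = 1.00). Of the 70 genes, 22 had a Log2FC above 0 and 48 below, beside 5996 above and 7302 below among the abundant genes, and 8 had groups that did not overlap (9.45% over all genes). The median Log2FC of the lists ran from -0.12 for the RAS GTPase activators to 0.02 for RAF, MEK, ERK and scaffolds.

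Of the genes named within those lists, KSR1, a scaffold that holds RAF, MEK and ERK, had 1112 and 788 normalized read counts in control cells against 306 and 721 in AP1AR-DT_OE cells (Log2FC -0.89, SE 0.54, DESeq2 adjusted p = 1.00). Both AP1AR-DT_OE values lay below both controls, although the number 1 library was the lower by far. MAPK3, which encodes an ERK kinase, had 2444 and 1375 in control cells against 2499.8 and 1784 in AP1AR-DT_OE cells (Log2FC 0.17). SHC1, an adaptor upstream of RAS, had 4355 and 27542 in control cells against 42546 and 2461 in AP1AR-DT_OE cells (Log2FC 0.50, SE 1.82), so it differed between numbers in opposite directions in the 2 groups. It shares exon sequence with PYGO2 on the same strand (10112 to 15567 counts) and with RP11-307C12.12 on the other strand. RP11-307C12.12 had 5462 and 273 counts in control cells against 243 and 5308 in AP1AR-DT_OE cells, high where SHC1 was low. The SHC1 count is therefore uncertain. RASA2, FRS2, DUSP2, CREB1, CYR61, ETS2 and RASA3 were the further genes at the extremes of their lists, with Log2FC values of -0.53, -0.55, 0.26, -0.38, 0.21, 0.10 and -0.03.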

How the data were processed

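SK-N-SH RNA-seq libraries were taken by their titles as control and AP1AR-DT_OE, 2 each. Per the paper's methods, the authors aligned reads with HISAT2 to hg19 and derived counts with StringTie; the submitters' processing notes name TopHat2 2.0.4, SAMtools, HTSeq, Cuffdiff and edgeR 2.6.12. The annotation and use of strand are not given in the sources used here. The deposited values are whole-number counts per gene, which were fitted as given. About 4 counts correspond to a pair of reads, so 12 counts (3 pairs) were taken as the floor, which covers counting error only. The deposited table also holds the authors' fold changes and p-values, which were not used. Its coordinates are GRCh38 positions.

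All 24014 genes were fitted in R 4.3.3 with DESeq2 1.42.0 (median-of-ratios size factors, two-sided Wald test, no covariate, Benjamini-Hochberg adjustment with default independent filtering, call at adjusted p under 0.05). Normalized read counts are counts divided by size factors. Libraries held 21988065 to 26184599 counts. The chi-square per degree of freedom was 155 between controls, 69.0 between AP1AR-DT_OE libraries, and lowest across groups at equal numbers (27.7 for number 1 and 34.6 for number 2), so none was a copy. GC content and length came from GENCODE 44 on GRCh37, for 23954 genes, and the GC correction took out a lowess trend (span 0.3). The procedure was tested on simulated counts that held a difference between groups only. They had no difference between numbers and no GC trend, so how the procedure behaves under those was not tested. Alternatives were edgeR 4.0.16, TMM factors, a filter of 10 counts in 2 libraries, the likelihood-ratio test, no independent filtering, a block for replicate number, GC correction, counts divided by 4, and leaving out each library. The genes, lists and tests were chosen with earlier results of these data known. Named genes were the 10, AP1AR-DT, ETV1, SPRY1 and DUSP1, and in each list the largest rise and fall in Log2FC (mean of at least 50) and any unadjusted p under 0.05; FOS, ATF3, PRRX1 and RP11-23P13.4 were named after their values were seen.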

Additional observations from a re-analysis of the deposited data

How the results depend on the processing

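None of the 10 genes was called under any of the 14 alternatives; the smallest unadjusted p was 0.059 (SPRED1, edgeR with the block) or, leaving out a library, 0.0498 (DUSP6 without control 2). Over all genes, the number called was 33, and it was 0 by edgeR (112 unadjusted), 15 after dividing the counts by 4, 55 with GC correction, 60 with GC correction and the block, and 45 to 90 leaving out a library (90 without control 1, 75 without control 2, 50 without AP1AR-DT_OE 2). AP1AR-DT kept its direction throughout; by edgeR its Log2FC was 6.60 (adjusted p = 0.39) and leaving out a library gave 6.02 to 8.05. The cause was not tested. Leaving out a library, where the lone sample is assumed to vary like the others, turned the direction in 16 of 40 values, with lowest and highest Log2FC of -0.19 and 0.0086 for DUSP4, -0.84 and 0.97 for DUSP6, -0.47 and 0.49 for SPRY2, -0.16 and 0.033 for SPRY4, -1.03 and 0.11 for SPRED1, -0.27 and 0.16 for SPRED2, -0.15 and 0.64 for ETV4, -0.39 and 0.42 for ETV5, and -3.76 and 3.49 for EGR1. DUSP5 ranged from -0.34 to -0.06. Of the other 100 values, 1 was turned, DUSP6 at 0.0037 with GC correction and the block.

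Deviations of libraries with the same replicate number from their group means correlated at 0.49 over 13298 genes, and at 0.26 after GC correction, but no label ties a number to a shared culture or day. With the replicate block, 37 genes were called (229 at an unadjusted p under 0.05), 44 by edgeR with the block, and the EGR1 Log2FC was -0.13 with an SE of 0.19. With GC correction and the block, 2 pathway genes were called, FOS at -0.96 (DESeq2 adjusted p = 9.71e-06) and FOSB at -1.10 (3.38e-06); with the block alone their adjusted p was 0.096 and 0.059, and 4 pathway genes (FOS, FOSB, KSR1 and SPRY1) had an unadjusted p under 0.05. PRRX1, a mesenchymal marker, was called with the block (-1.75, DESeq2 adjusted p = 1.10e-07), by edgeR with the block (-1.76, adjusted p = 0.018) and with GC correction and the block (-1.68, adjusted p = 1.06e-14).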

Other observations

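Besides FOS, FOSB and EGR1, genes outside the pathway lists that were more than 4-fold higher in number 2 in both groups included ZFP36, which encodes an RNA-binding protein that shortens the life of cytokine mRNAs, with 415 and 3071 normalized read counts in control cells against 319 and 2902 in AP1AR-DT_OE cells. IL8, a chemokine gene, had 286 and 2224 in control cells against 272 and 1823 in AP1AR-DT_OE cells. LRRC8D, which encodes a volume-regulated anion channel subunit, had 22.8 and 350.2 in control cells against 25.2 and 383 in AP1AR-DT_OE cells. After the GC correction, the log2 ratio of number 2 to number 1 was 1.35 in the controls and 1.80 in AP1AR-DT_OE for IL8, less than 4-fold. The corrected ratios were 3.53 and 3.49 for ZFP36 and 3.15 and 3.45 for LRRC8D. These genes were chosen after their values were seen, as 47 of 13298 genes (0.353%) were more than 4-fold higher in both groups without the correction.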
